A study of Mus musculus with 6 samples.

Results

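The PYHIN genes, also called the p200 or HIN family, were followed in RENCA cells that carried a lentivirus with the mouse water channel gene Aqp1 (oe-AQP1) or an empty control lentivirus (oe-NC). RENCA is an established mouse renal adenocarcinoma line. The members were chosen by gene name: 9 names were given, and 8 of them were listed in the deposited table of 78298 genes, namely Aim2, Ifi203, Ifi204, Ifi205, Ifi207, Ifi209, Ifi211 and Ifi213. The remaining name, Mnda, was not listed, and RefSeq gives it as an older symbol of Ifi211, so the 9 names stand for 8 genes. A further 6 PYHIN genes of the same cluster were listed (Ifi202b, Ifi203-ps, Ifi206, Ifi208, Ifi214 and Mndal), which brings the cluster to 14 genes.

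There were 3 samples of each group, and both groups had spent 14 days under puromycin (2 μg/mL), so that all samples are stably transduced populations and no sample of untransduced cells was analysed. The Aqp1 coding sequence was driven by the ubiquitin C promoter, and both vectors carried the puromycin resistance cassette and no reporter. No separate culture dates or batches tell the samples of a group apart, so the p-values measure the spread between these samples, which may be partly technical. The labelled overexpression was seen in the counts: Aqp1 counts were 7713, 8545 and 7838 with the Aqp1 vector and 41, 25 and 45 with the empty vector (log2FC = 7.70, FDR = 1.34e-10). Here log2FC is the fold change on the log2 scale, oe-AQP1 over oe-NC, and FDR the Benjamini-Hochberg adjusted p of limma-voom over all genes tested. Total expected counts per sample ranged from 18385714 to 21920899. Samples of 1 group differed by a chi-square of 1.74 to 2.06 per gene, except that oe-NC sample 1 differed from the other two by 9.75 and 11.3, and values without it are given where they matter. The kidney epithelial marker genes Krt8, Krt18, Pax8 and Cdh16 had at least 2177 counts in every sample, whereas Epcam had 0 counts in all.

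PYHIN proteins pair a pyrin domain, which binds other pyrin domains, with a HIN domain, which binds DNA. AIM2 uses its HIN domain to recognise double-stranded DNA in the cytosol and its pyrin domain to recruit the adaptor ASC (Pycard), which activates caspase-1. The other mouse members arose by repeated duplication of neighbouring genes, are induced by interferon in many cell types, and have been linked to DNA sensing, the inflammasome and the control of cell growth. In the deposited domain annotation, 10 of the 14 genes had both domains. Ifi213 had a pyrin domain alone, Ifi208 a pyrin domain beside a retroviral Rec domain, and Ifi202b HIN domains alone, while the pseudogene Ifi203-ps had no entry.

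On GRCm39 the cluster spans 681 kb of chromosome 1. From its first to its last gene, the members are Aim2 (chr1:173178445-173293930, + strand), Ifi213 (chr1:173393846-173426881, - strand), Ifi209 (chr1:173458380-173475494, + strand), Ifi207 (chr1:173550990-173569383, - strand), Ifi204 (chr1:173574859-173594610, - strand), Ifi211 (chr1:173723911-173740612, - strand), Ifi203 (chr1:173747971-173770436, - strand) and Ifi205 (chr1:173839549-173859456, - strand). Because the genes are recent copies, reads can match more than 1 of them. The transcripts of Ifi211 shared 51.8% of their distinct 100-base words with other genes, 31.8% with Ifi205. This share was 16.4% for Ifi209, 14.4% for Ifi205, 11.8% for Ifi204, 5.5% for Ifi203, 2.4% for Ifi213, 0.8% for Ifi207 and 0 for Aim2. The deposited counts of Ifi203, Ifi205, Ifi207 and Ifi211 were fractions in all 6 samples, as happens where a counter divides reads, whereas Aim2 and Ifi202b had whole counts in all 6. By the shared words, levels of Ifi204, Ifi205, Ifi209 and Ifi211 are less certain than those of Ifi207 or Ifi203. The fractions did not follow these shares, since Ifi209 had them in 3 of the 6 samples.

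The promoters are shown because several members were higher in the same samples and because the genes are classed as interferon-inducible. Factors of the interferon response bind the interferon-stimulated response element (ISRE), whose core was searched as GAAANNGAAA on both strands. The bases before the annotated start site are printed 5′ to 3′ on the gene's strand, as RefSeq gives them for GRCm38.p6, which is an earlier build than that of the gene positions above. Capitals mark a match of the ISRE core, or in Ifi209 a match of the NF-kB core GGGANNTTCC. The printed stretch is chr1:173942493-173942642 for Ifi203, chr1:173741810-173741959 for Ifi207, chr1:173913047-173913196 for Ifi211, chr1:173599273-173599422 for Ifi213 and chr1:174031756-174031905 for Ifi205, all on the - strand. It is chr1:173630709-173630858 for Ifi209 and chr1:173420454-173420603 for Aim2, both on the + strand.
Ifi203: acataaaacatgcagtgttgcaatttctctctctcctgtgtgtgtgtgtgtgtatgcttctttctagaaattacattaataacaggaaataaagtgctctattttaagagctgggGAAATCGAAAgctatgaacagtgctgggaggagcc
Ifi207: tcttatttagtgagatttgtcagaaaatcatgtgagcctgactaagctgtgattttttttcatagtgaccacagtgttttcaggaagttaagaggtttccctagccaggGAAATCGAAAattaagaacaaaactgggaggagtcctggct
Ifi211: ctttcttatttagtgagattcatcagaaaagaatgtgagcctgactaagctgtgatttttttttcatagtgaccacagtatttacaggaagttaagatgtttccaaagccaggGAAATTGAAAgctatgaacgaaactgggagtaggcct
Ifi213: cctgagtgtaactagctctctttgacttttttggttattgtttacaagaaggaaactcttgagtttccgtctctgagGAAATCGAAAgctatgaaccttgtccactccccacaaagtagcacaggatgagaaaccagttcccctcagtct
Ifi205: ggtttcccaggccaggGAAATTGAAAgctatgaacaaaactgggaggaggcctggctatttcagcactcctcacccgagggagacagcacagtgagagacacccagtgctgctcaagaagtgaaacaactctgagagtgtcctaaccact
Ifi209: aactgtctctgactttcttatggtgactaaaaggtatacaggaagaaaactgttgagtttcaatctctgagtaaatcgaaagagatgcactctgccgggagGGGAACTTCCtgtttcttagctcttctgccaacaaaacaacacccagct
Aim2: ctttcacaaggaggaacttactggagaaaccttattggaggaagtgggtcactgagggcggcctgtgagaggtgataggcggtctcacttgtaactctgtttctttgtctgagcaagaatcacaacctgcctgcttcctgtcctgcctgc

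Of the 7 members with a promoter in the table, 5 held the ISRE core within 250 bases before and 50 after the start site, compared with 3.43% of 32817 promoters of this length. Ifi204 was not matched. The match began 35 bases before the start site in Ifi203, 37 in Ifi211, 41 in Ifi207 and 73 in Ifi213. In Ifi205 a match began 134 bases before the start site and another 23 bases after it. Ifi209 and Aim2 had no match, nor did the promoter of a second RefSeq start site of Ifi203. The GAS element, searched as TTCNNNGAA, was in 8.29% of all promoters and in none of the members, and the NF-kB core was in 1.47% of all promoters and in Ifi209 alone among the members. A match is a description of letters and not of binding.

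In Ifi203, Ifi207 and Ifi213 the matched word was GAAATCGAAA, a word noticed after these promoters had been viewed. It was present in 16 of the 32817 promoters (0.049%), and 7 of the 16 belonged to the PYHIN cluster, those of Ifi206, Ifi208, Ifi214 and Mndal besides the 3 members. With positions counted from 1 at the 5′ end of that word, Ifi211 and Ifi205 carried C6T, and Ifi209 carried G1T, which removes it from the searched core. The copies also resembled each other around the word. Over 60 bases centred on it, Ifi213 and Ifi208 were identical, as were Ifi203 and Mndal, and Ifi211 and Ifi205 were alike at 90.0% of bases. Over all 45 pairs of the 10 genes with this word or 1 mismatch to it, the likeness ranged from 46.7% to full identity, with a median of 65.0%.

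**Figure D1:**
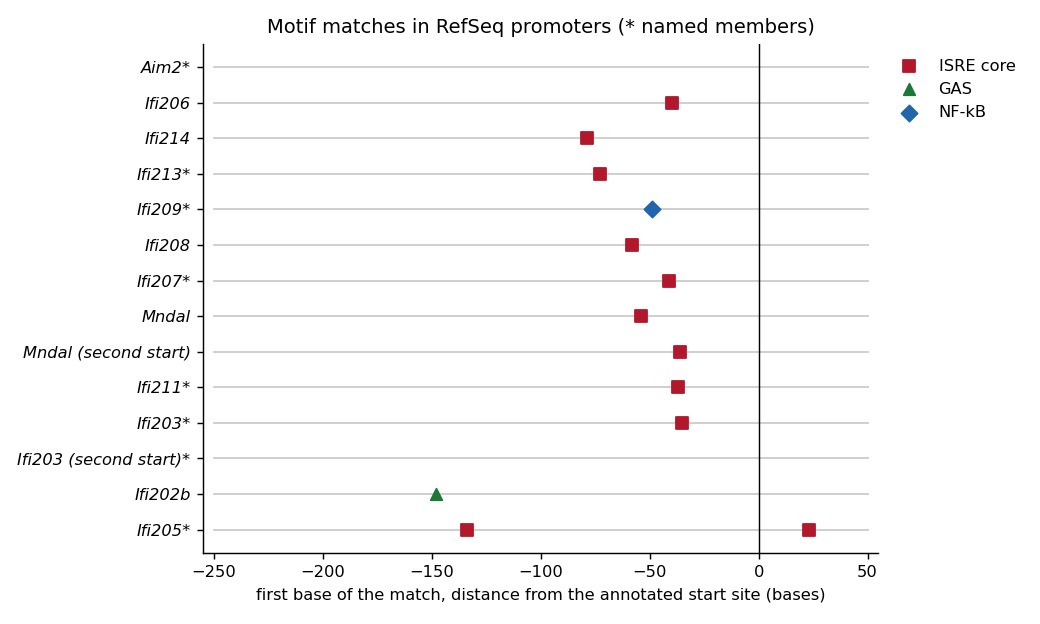
Position of each motif match in the RefSeq promoters of the PYHIN genes, as the distance in bases of its first base from the annotated start site (vertical line); each horizontal line is 1 promoter, and asterisks mark the named members. ISRE core matches (squares) lie between 35 and 79 bases before the start site in most promoters, and those of Aim2, Ifi209, Ifi202b and the second start site of Ifi203 have none.

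The question put to the counts was whether the PYHIN genes differed between oe-AQP1 and oe-NC cells. Of the 8 members, 4 had at least 10 counts in every sample (Ifi203, Ifi204, Ifi207 and Ifi211), and all 4 rose in oe-AQP1 cells by 4.15-fold to 7.98-fold. A further 3 (Ifi205, Ifi209 and Ifi213) passed the low-count filter only through the oe-AQP1 samples and were also called higher. Aim2 was not tested, for low counts. A gene was called where limma-voom gave an FDR under 0.05 over the 15522 genes tested and an absolute log2FC above 1. Higher calls made up 4.39% of all genes tested, genes past the FDR alone and higher 16.0%, and genes with every oe-AQP1 sample above every oe-NC sample 23.5%. The median log2FC of all genes tested was 0.00. In bulk samples, a change in the number of cells that express a gene and a change in its RNA per cell cannot be told apart. To limit artifacts of transfection, the study's own list of changed genes leaves out interferon-stimulated and viral defence genes. It keeps inflammatory mediators held relevant to cancer. Here the genes left out there were tested with all others.

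Ifi204 encodes p204, which has been linked to DNA sensing through STING and to macrophage differentiation, and it had the highest level of the members. Its CPM, the count relative to the TMM-scaled library, was 537, 552 and 541 in oe-AQP1 samples 1 to 3 and 102, 111 and 112 in oe-NC samples 1 to 3. The groups lay far apart, with little spread within either. The difference was 5.01-fold (95% interval 4.73 to 5.30, log2FC = 2.32, SE = 0.04, FDR = 5.57e-11).

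Ifi203, which has been described as a sensor of retroviral DNA, had 412, 430 and 427 CPM in the oe-AQP1 samples and 75.0, 88.4 and 86.9 CPM in the oe-NC samples. The lowest of the 6 values was that of oe-NC sample 1, and the groups did not overlap. Ifi203 was 5.08-fold higher (95% interval 4.71 to 5.49, log2FC = 2.35, FDR = 4.61e-10), and the log2FC without oe-NC sample 1 was 2.27.

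Ifi207, which has been tied to the STING protein, had 339, 327 and 335 CPM in the oe-AQP1 samples and 41.1, 42.4 and 42.0 CPM in the oe-NC samples. This was the largest rise among the 4 members with at least 10 counts throughout, at 7.98-fold (95% interval 7.54 to 8.44, log2FC = 3.00, FDR = 1.18e-11). Its interval lay above those of Ifi203, Ifi204 and Ifi211.

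Ifi211, the gene to which the name Mnda refers, had 156, 146 and 156 CPM in the oe-AQP1 samples and 35.7, 36.1 and 38.5 CPM in the oe-NC samples. It rose 4.15-fold (95% interval 3.87 to 4.45, log2FC = 2.05, FDR = 6.46e-10), the smallest rise of the 4. Since 51.8% of its transcript words also occur in other genes, mostly Ifi205 and Ifi204, some of its reads may belong to those genes.

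Ifi205 encodes p205, which has been linked to the expression of the adaptor ASC in macrophages. Its counts were 131, 110 and 147 in oe-AQP1 cells and 5, 6 and 9 in oe-NC cells, so it was close to undetected in the control cells. Its summed CPM was 18.4 times higher, with an exact 95% counting interval of 11.8 to 30.5, and it was called (log2FC = 4.12, SE = 0.37, FDR = 1.71e-05). Counting intervals cover counting error only, and Ifi205 passed the low-count filter only through the oe-AQP1 samples. Ifi211 averaged 153 CPM in oe-AQP1 cells where Ifi205 averaged 6.26 CPM, so reads of Ifi211 could enter the count of Ifi205 through the shared words, and their part in it was not tested.

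Ifi213, with a pyrin domain alone, had counts of 18, 28 and 25 in oe-AQP1 cells and of 2, 1 and 0 in oe-NC cells. Ifi209, with both domains, had 12, 12 and 15 counts against 1, 0 and 0. Neither gene overlapped between groups, where 23.5% of all genes tested had every oe-AQP1 sample above every oe-NC sample. Both passed the low-count filter only through the oe-AQP1 samples, so the filter favours this separation and the calls. The oe-NC level was too low to fix the size of the rise. The ratio of summed CPM was 22.5 for Ifi213 (exact 95% counting interval 7.39 to 112) and 37.1 for Ifi209 (6.27 to 1500). Both were called (FDR = 2.15e-04 for Ifi213 and FDR = 1.14e-04 for Ifi209), and their fitted log2FC depended on the fit, from 3.49 to 4.71 for Ifi213 and from 3.82 to 5.11 for Ifi209.

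Aim2, the member whose protein nucleates an inflammasome, had counts of 3, 8 and 11 in oe-AQP1 cells and of 4, 1 and 4 in oe-NC cells. The groups overlapped, since oe-AQP1 sample 1 lay below 2 of the control samples. The ratio of summed CPM was 2.32 (exact 95% counting interval 1.03 to 5.73), and an exact two-sided permutation test over the samples gave p = 0.3, where 0.1 is the smallest p that 3 against 3 samples allow. Without the low-count filter, limma-voom gave a log2FC of 1.06 (SE = 0.62, FDR = 0.347) and edgeR's quasi-likelihood test an FDR of 0.265. A difference in Aim2 was thus not detected. Aim2 had at most 11 counts in any sample, where Ifi204 had at least 2010.

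**Figure D2:**
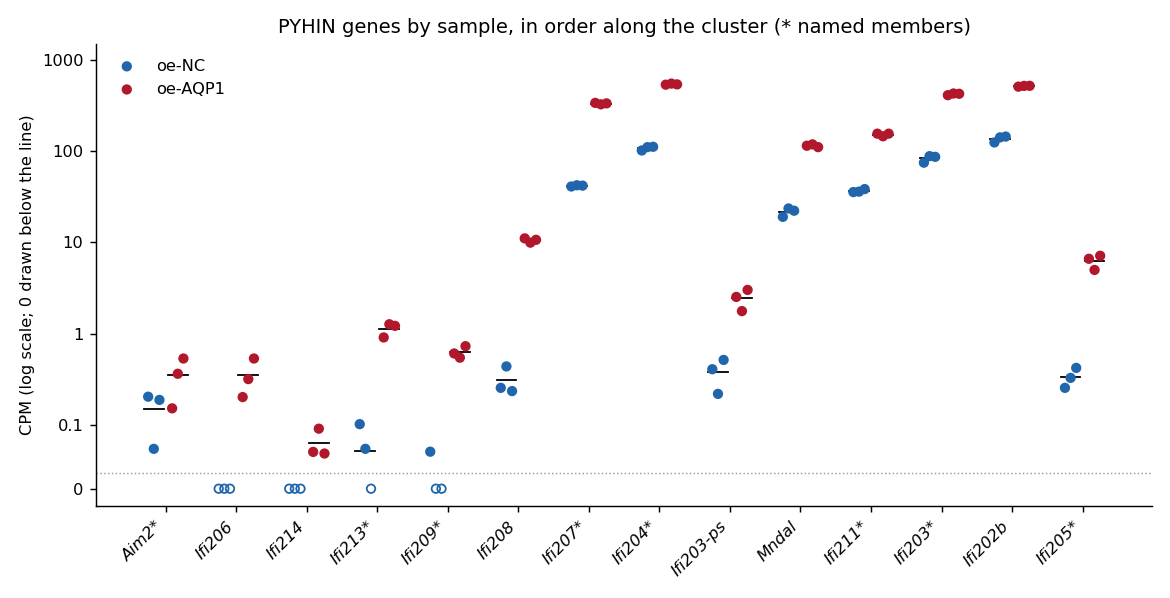
CPM (log axis) of the 14 PYHIN genes in each of the 3 oe-NC and 3 oe-AQP1 samples, in order along the cluster; each point is 1 sample, black bars are group means at or above 0.03 CPM, open circles below the dotted line are counts of 0, and asterisks mark the named members. Aim2 is the one gene whose groups overlap, where 23.5% of all genes tested had every oe-AQP1 sample above every oe-NC sample. Ifi205, Ifi208, Ifi209, Ifi213 and Ifi203-ps passed the low-count filter only through the oe-AQP1 samples, and Ifi206 and Ifi214 were not tested. Ifi204, Ifi202b, Ifi203 and Ifi207 are the highest in oe-AQP1 cells.

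The other PYHIN genes of the cluster were read for comparison. Of 6 listed, 2 had at least 10 counts in every sample (Ifi202b and Mndal), and both were called higher. Another pair, Ifi208 and Ifi203-ps, passed the low-count filter only through the oe-AQP1 samples and was called higher too. Ifi202b encodes p202, which has HIN domains without a pyrin domain and is known to restrain the AIM2 inflammasome. It had 511, 521 and 522 CPM against 125, 142 and 145 CPM, a rise of 3.78-fold (95% interval 3.53 to 4.05, FDR = 1.02e-09), the smallest among the 11 PYHIN genes tested. Mndal rose 5.32-fold (95% interval 4.82 to 5.87), from a mean of 21.7 ± 2.35 CPM to 115 ± 3.97 CPM (SD, n = 3). Ifi208 had 219, 219 and 220 counts against 5, 8 and 5, a ratio of summed CPM of 34.7 (exact 95% counting interval 21.8 to 59.0). Ifi203-ps had 50, 39 and 62 counts against 8, 4 and 11, a ratio of 6.24 (4.01 to 10.1), although 58.2% of its words occur elsewhere. Ifi206 had 4, 7 and 11 counts against 0 in all 3 control samples. Set against a floor of 3 counts over the control group, this was 6.97-fold, and the exact 95% counting interval of the ratio begins at 5.21. Ifi214 had 1, 2 and 1 counts against 0, too few for a ratio.

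**Figure D3:**
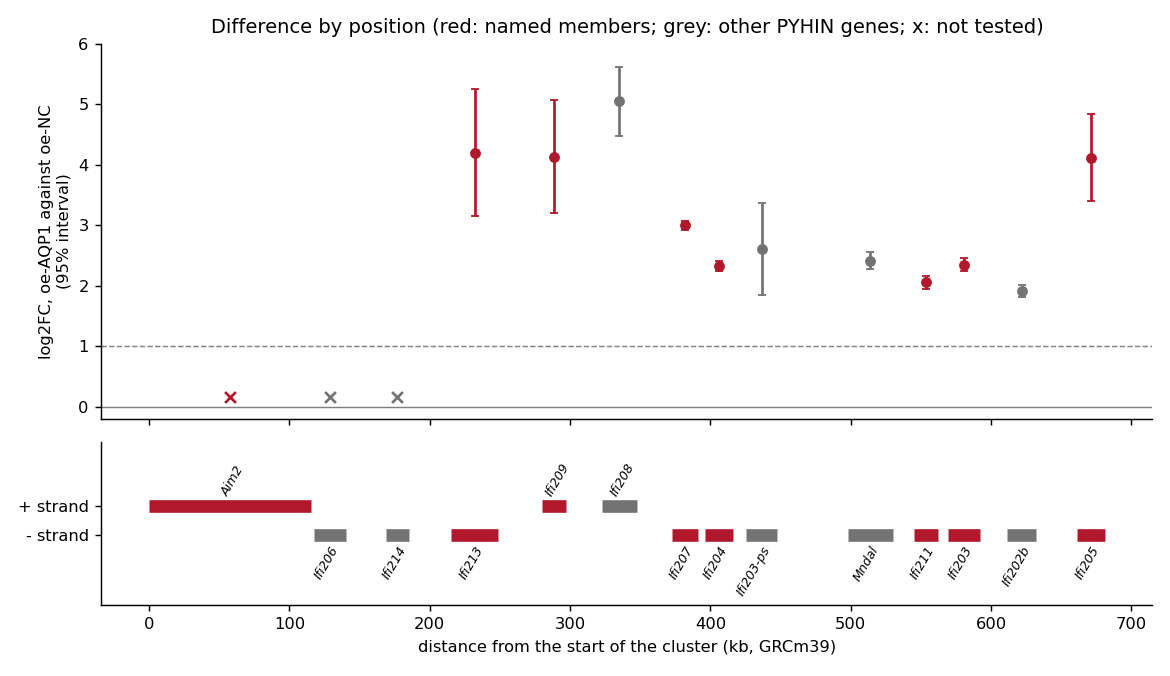
Upper panel, log2FC of oe-AQP1 against oe-NC with its 95% interval for the 11 PYHIN genes tested, placed at the gene's centre in kb from the start of the cluster; the dashed line is the threshold of 1, and crosses mark the 3 genes not tested. Lower panel, the extent and strand of each gene. The 6 genes with at least 10 counts in every sample (Ifi203, Ifi204, Ifi207, Ifi211, Ifi202b and Mndal) lie between 1.92 and 3.00; Ifi205, Ifi208, Ifi209, Ifi213 and Ifi203-ps, which were tested only through their oe-AQP1 counts, have the widest intervals, and the 3 genes not tested are the first 3 of the cluster.

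The comparison could not be followed from the cluster into the surrounding chromosome. Of 50 other genes within 500 kb of the outermost members, none passed the low-count filter, 41 had 0 counts in all samples and 49 had at most 3 counts in any sample. The 13 other genes annotated inside the cluster were likewise not tested. Aim2, Ifi206 and Ifi214, which lie next to each other at one end of the cluster, were the PYHIN genes with too few counts to test.

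Per length of transcript, the order of the levels differed between the groups. In oe-NC cells, the RPKM, which is the CPM divided by the exon length in kilobases, averaged 76.2 for Ifi202b, 29.6 for Ifi204, 19.6 for Ifi211 and 11.4 for Ifi207. Ifi203 followed, but the RPKM values of Ifi207 (11.2 to 11.6) and Ifi203 (9.88 to 11.6) overlapped. In oe-AQP1 cells the RPKM averaged 288 for Ifi202b, 148 for Ifi204, 91.4 for Ifi207, 81.3 for Ifi211 and 55.7 for Ifi203. Here Ifi207 (89.6 to 92.8) lay above Ifi211 (77.8 to 83.2) in every sample, the reverse of the order in oe-NC cells, and no 2 neighbours among these 5 overlapped. Mndal (28.0), Ifi208 (2.01), Ifi205 (1.47), Ifi203-ps (0.954), Ifi209 (0.172), Ifi213 (0.123), Ifi206 (0.104), Aim2 (0.0533) and Ifi214 (0.00782) followed in mean RPKM. Among these, neighbours overlapped between Ifi205 and Ifi203-ps, between Ifi213 and Ifi206, and between Ifi206 and Aim2.

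The 14 genes together took 0.209% to 0.213% of all counts in the oe-AQP1 samples and 0.0396% to 0.0446% in the oe-NC samples. Their summed CPM was 2110 ± 13.4 against 431 ± 27.2 (SD, n = 3 each), 4.89 times higher. Within this sum the composition moved. Ifi207 supplied 15.5% to 16.2% of the cluster's counts in the oe-AQP1 samples and 9.39% to 10.3% in the oe-NC samples. Ifi202b supplied 24.4% to 24.7% against 31.3% to 32.3%, and Ifi211 6.91% to 7.47% against 8.10% to 8.93%. The share of Ifi204 averaged 25.8% against 25.2%, and that of Ifi203 (19.7% to 20.3% against 18.8% to 19.9%) overlapped between the groups. Such shares are tied to each other, since a rise in one lowers the rest.

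**Figure D4:**
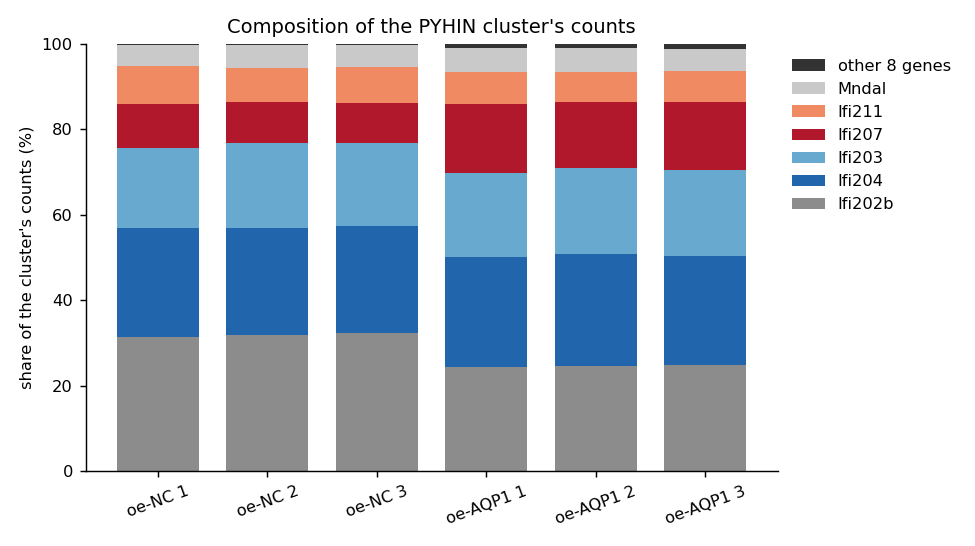
Share (%) of the PYHIN cluster's counts taken by each gene in each sample; the bars are stacked to 100%, and the 8 genes with the fewest counts are drawn as one. Ifi207 takes 15.5% to 16.2% in oe-AQP1 samples against 9.39% to 10.3% in oe-NC samples, and Ifi202b 24.4% to 24.7% against 31.3% to 32.3%.

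Ratios between members within a sample do not depend on the scaling of the libraries. The 4 members with a mean of at least 100 counts over all 6 samples (Ifi203, Ifi204, Ifi207 and Ifi211) form 6 pairs, and in 5 of them the log2 ratio did not overlap between the groups. The pairs share genes and are not separate observations, and the same count over other gene pairs was not made. Pairs with Ifi211 carry the limit of its shared words (51.8%). The exact two-sided permutation test gave p = 0.1 for each of the 5, the smallest that 3 against 3 samples allow, and an adjusted p of 0.12 over the 6 pairs, so that none could pass 0.05. The log2 ratio of Ifi207 to Ifi211 was 1.12, 1.16 and 1.11 in the oe-AQP1 samples and 0.20, 0.23 and 0.13 in the oe-NC samples, a difference of 0.94. The log2 ratio of Ifi207 to Ifi204 differed by 0.67 and that of Ifi207 to Ifi203 by 0.65. Ifi204 and Ifi203 kept nearly the same ratio, with a mean log2 ratio of 0.36 ± 0.02 against 0.38 ± 0.06 (SD, n = 3 each) and an exact permutation p = 0.8.

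Genes of the pathways around the PYHIN proteins were then read from lists. Of 11 inflammasome genes, 8 were tested, 5 rose at FDR under 0.05 and 1 fell, with a median log2FC of 0.71, and 1 of the 5 also passed the fold threshold. That gene was Casp4, which encodes the caspase that detects cytosolic lipopolysaccharide (log2FC = 1.32, FDR = 1.44e-08). Casp1, the effector protease of AIM2, had a mean of 56.6 CPM against 31.2 CPM (log2FC = 0.87, FDR = 7.16e-06). Gsdmd, whose cleaved protein forms the pores of pyroptosis, rose by a similar amount (log2FC = 0.89, FDR = 1.82e-07). Pycard, the adaptor between AIM2 and caspase-1, had 115, 106 and 93 counts against 65, 51 and 88 (log2FC = 0.56, FDR = 0.0296). The call of Pycard was lost without oe-AQP1 sample 1 (FDR = 0.104), oe-AQP1 sample 2 (FDR = 0.0641) or oe-NC sample 2 (FDR = 0.105), and without the low-count filter (FDR = 0.0622). Nek7, which encodes a partner of NLRP3, fell (log2FC = -0.41, FDR = 9.98e-05). The sensor genes Aim2, Nlrp3 and Nlrc4 were scarce, each with at most 11 counts in any sample, and Il1b had at most 8. Casp4, whose protein also senses, had at least 877 counts.

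Of 10 cytosolic DNA sensing genes, 9 were tested and 6 rose at FDR under 0.05, with a median log2FC of 0.48. Both genes past the fold threshold act on nucleic acids: Zbp1, a sensor of Z-form nucleic acids, had 10441, 11797 and 10744 counts against 991, 1009 and 1131 (log2FC = 3.32, FDR = 6.77e-12), and Trex1, an exonuclease that degrades cytosolic DNA, had 740, 862 and 753 against 147, 153 and 194 (log2FC = 2.18, FDR = 2.41e-08). Cgas, the enzyme that makes the messenger for STING, was not tested, with 10 counts in each oe-AQP1 sample against 2, 0 and 2. Sting1 had a log2FC of 0.21 (FDR = 0.0160), and its call was lost without oe-AQP1 sample 1 (FDR = 0.0695), oe-AQP1 sample 3 (FDR = 0.0586) or oe-NC sample 2 (FDR = 0.0637), and without the low-count filter (FDR = 0.0845).

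All 10 interferon receptor and transcription factor genes were tested. At FDR under 0.05, 6 rose and 1 fell, with a median log2FC of 0.47. Irf7, the factor that amplifies interferon transcription, rose from 491 to 1920 CPM (log2FC = 1.97, FDR = 3.45e-11). Stat2 (log2FC = 1.97, FDR = 8.79e-11) and Irf9 (log2FC = 0.68, FDR = 4.31e-07), whose proteins act together at the ISRE, both rose. Of the receptor genes, Ifnar2 had a log2FC of 0.27 (FDR = 0.00134) and Ifnar1 a log2FC of -0.08 (FDR = 0.240). Jak1, a kinase of the receptors, was the gene that fell (log2FC = -0.11, FDR = 0.0457). This call was lost with DESeq2 (FDR = 0.113), edgeR's quasi-likelihood test, library size alone, the filter of 10 counts or the replicate block. It was also lost without any 1 sample other than oe-NC sample 1, with an FDR up to 0.184.

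**Figure D5:**
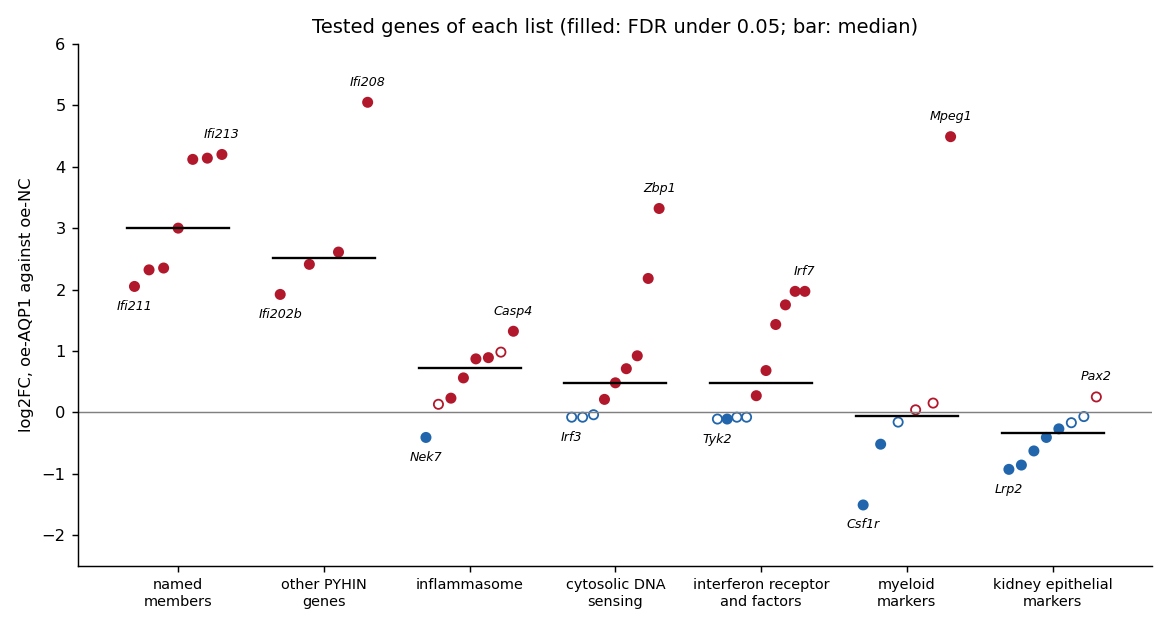
log2FC of oe-AQP1 against oe-NC for the tested genes of each list; each point is 1 gene, filled where the FDR is under 0.05 and open otherwise, red above 0 and blue below, and horizontal bars are medians. The tested PYHIN genes lie between 1.92 and 5.05, the higher end being genes with few oe-NC counts, and the inflammasome, DNA sensing and interferon factor lists have medians of 0.71, 0.48 and 0.47.

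PYHIN genes are abundant in myeloid cells, so the markers of those cells are given beside them. Of 12 myeloid marker genes, 6 were tested, and at FDR under 0.05 1 was higher and 2 were lower, with a median log2FC of -0.06. Their summed CPM was 133 to 136 in the oe-AQP1 samples and 75.2 to 80.0 in the oe-NC samples. Without Mpeg1 the other 11 summed to 63.7 to 66.8 CPM and 72.5 to 76.7 CPM, the opposite direction. Adgre1 and Tyrobp had 0 counts in all samples, and 5 of the 12, including Ptprc and Itgam, had at most 3 counts in any sample. Other markers were counted in every sample, namely Cd68 (576 to 777 counts), Cd14 (229 to 269) and Spi1 (65 to 99). None of these passed the FDR. Mpeg1, a pore-forming gene that is also interferon-inducible, had 1419, 1490 and 1431 counts against 64, 62 and 57 (log2FC = 4.49, FDR = 8.67e-10). Csf1r (log2FC = -1.51, FDR = 1.31e-05) and Lyz2 (log2FC = -0.52, FDR = 2.73e-04) fell. The kidney epithelial markers summed to 844 to 876 CPM in the oe-AQP1 samples and 1030 to 1140 CPM in the oe-NC samples. Of 8 of these tested, 5 fell at FDR under 0.05, by 0.27 (Krt18) to 0.93 (Lrp2) on the log2 scale, where 16.6% of all genes tested were lower at this FDR. The part of these shifts in the PYHIN result was not tested.

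The genes with the profile closest to that of the tested members were sought among 11837 protein-coding genes outside the family. The measure was the root mean square distance of log2 CPM over the 6 samples, each gene centred on its own mean. The 5 closest were Ifit1 (distance 0.070), Gbp3 (0.074), C4b (0.088), Il18bp (0.105) and Ifi47 (0.110). Ifit1 had 8954, 10203 and 9478 counts against 1123, 1092 and 1138 (log2FC = 3.02, FDR = 1.96e-11), and Gbp3 15530, 17267 and 16289 against 2076, 1952 and 2184 (log2FC = 2.91, FDR = 5.22e-12). With 2 groups of 3 samples, such a distance mostly measures the size of the difference between the groups. The tested members include Ifi205, Ifi209 and Ifi213, which passed the low-count filter only through the oe-AQP1 samples. Their log2FC was at least 4.12, where that of Ifi203, Ifi204, Ifi207 and Ifi211 ranged from 2.05 to 3.00. Whether the same genes would be closest with Ifi205, Ifi209 and Ifi213 left out was not tested.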

How the data were processed

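RNA was measured by paired-end sequencing in 6 samples of RENCA cells, 3 oe-AQP1 and 3 oe-NC. The authors deposited an expected count for each of 78298 genes per sample, unscaled, so that values need not be whole (9.5% to 10.6% of values per sample were fractions). The study's methods give GRCm39, while the submitters' processing notes list GRCm38, mm10, fastp, HISAT2, Subread and featureCounts, with no role. Positions and lengths came from GENCODE M39, which holds 78168 of the identifiers. How reads shared by PYHIN copies were divided is not given in the sources used here, and RENCA derives from another mouse strain than the reference genome, so reads of divergent copies may be misplaced. The part of this was not tested.

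Expected counts were rounded and tested with limma-voom 3.58.1 (TMM by edgeR 4.0.16, R 4.3.3) on the 15522 genes kept by edgeR's filterByExpr, two-sided, with Benjamini-Hochberg adjustment. CPM and RPKM use TMM-scaled libraries and the bases in the union of exons. Intervals of a fold are log2FC ± 1.96 SE. The script was tested on simulated data. Alternatives comprised DESeq2 1.42.0, edgeR's quasi-likelihood test, sample quality weights, other scalings, filters and thresholds, unrounded counts, a replicate block and leaving out each sample. At this depth a gene with 20 counts lies near 1 CPM, and genes with fewer than 10 counts are measured within wide counting intervals.

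The members, lists and alternatives were chosen with earlier results of these data known. The genes named are all PYHIN genes listed, Aqp1, the 5 genes closest in profile, and of each list the 2 largest increases and 2 largest decreases past the FDR, plus Pycard, Casp1, Gsdmd, Cgas, Sting1, Stat2 and Irf9. A further gene of the rule is not reported here by name. Nlrp3, Nlrc4, Il1b, Ifnar1, Ifnar2, Epcam and the markers given by their counts were added after their values were seen. Columns of group means were not used.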

Additional observations from a re-analysis of the deposited data

How the results depend on the processing

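All 7 tested members kept their direction and their side of the FDR threshold in all 116 log2FC values from the alternatives (lowest log2FC 2.03, highest FDR 0.00217), and 7 members were called whichever sample was left out. Ifi205, Ifi209 and Ifi213 passed the low-count filter only through the oe-AQP1 samples, so the filter favours their direction. For Ifi203, Ifi204, Ifi207 and Ifi211 the highest FDR among the alternatives was 5.45e-08 (Ifi211). Requiring at least 10 counts in every sample left 4 members to test, all 4 higher, and 2 of the other PYHIN genes, both higher; the smaller number tested is the cause. The same-numbered samples did not deviate together (Pearson's r of 0.012, -0.012 and -0.071). No pairing by number was thus seen, although with 3 samples per group this does not exclude it. A replicate block called 7 members. Jak1 was the single gene of the interferon receptor and factor list lower at FDR under 0.05, and 0 were lower with edgeR's quasi-likelihood test (also without a filter, chosen after seeing the data) and DESeq2 (1 by each at an unadjusted p under 0.05), with library size alone, the filter of 10 counts or the replicate block, and 0 to 1 when each sample was left out. Of the kidney epithelial markers 0 were higher by limma-voom, edgeR or DESeq2 (0, 0 and 1 at an unadjusted p under 0.05), and 1 (Pax2) was with sample quality weights, the replicate block or edgeR without a filter, and 0 to 1 when each sample was left out. The sample whose removal gave 1 was oe-NC sample 1 (Pax2 log2FC = 0.41, FDR = 3.99e-06, against 0.25 and 0.124 with all samples). The cause of these was not tested. Among 847 alternative values of the other named genes, 0 reversed a gene past the FDR in the main fit, 19 lost the call and 9 gained one. Genes not past the FDR could change sign, as Spi1 did (log2FC = 0.04, and -0.19 without oe-NC sample 3). Depth limits Aim2, Ifi209, Ifi213, Ifi206 and Ifi214. Shared sequence limits Ifi203-ps and Ifi211 most, and Ifi209, Ifi205 and Ifi204 less.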
